A study of Drosophila melanogaster with 6 samples.

Results

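Yorkie (Yki) peaks on the left arm of chromosome 2 (2L) of Drosophila melanogaster are described here, from a chromatin immunoprecipitation sequencing (ChIP-seq) experiment on whole embryos aged 8 to 16 h. They are the 532 peaks of 2L that do not overlap the histone gene array at 21415000 to 21544000, out of 5136 peaks in the deposited list and 583 on the whole arm. All positions are 1-based and follow FlyBase release 5. The members were chosen by position alone, and no score or width entered the rule. The array left out held 51 peaks within 129 kb, so the rule does bear on density and spacing.

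The series has 3 Yki ChIP libraries, precipitated with Yki91, a crude polyclonal rabbit serum against the full-length protein, and 3 libraries of input DNA as their background. Both groups came from embryos of the same strain, labelled Y cn bw sp, fixed in 1.8% formaldehyde for 15 min. It carries the visible markers y[1], cn[1], bw[1] and sp[1], together with oc[R3.2], CG33964[R4.2] and lab[R4.2], and with Gr22b[1], Gr22d[1], LysC[1], GstD5[1], MstProx[1] and Rh6[1]. No treatment or mutant was compared, and whether the 3 libraries of a group are separate embryo collections is not stated in the labels. Whole embryos mix all tissues, so a site used in few cells and a site used weakly in many cannot be told apart.

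Yki is the transcriptional coactivator that the Hippo pathway holds in check. When the kinases Hippo and Warts are active, Yki is phosphorylated and kept in the cytoplasm. Otherwise it enters the nucleus, where it has no DNA-binding domain of its own and is brought to enhancers by partners such as Scalloped, a TEAD-family factor, and switches on genes of growth and survival. Arm 2L carries several genes of this pathway, among them expanded, fat and dachsous, which act upstream of Yki, and Cyclin E, a cell-cycle target. It runs from a telomere, which in flies is built of retrotransposons, to the heterochromatin beside the centromere. Peaks are named by position and were not assigned to genes, since a release 5 annotation was not used.

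The authors give each peak a start, an end and 1 score, for the whole series at once. Nothing in the sources used here states the scale of that score. It therefore serves mainly to rank peaks within this list, and no ratio of scores is formed. Score differences and Pearson correlations below are taken on that unstated scale and are descriptions only. There are no values per library, read depths are unknown, and no spread between replicates can be set beside any value. Intervals below are 95% intervals over peaks and cover counting error only. Peaks are not replicates of each other.

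The strongest Yki sites of 2L stood at scattered places along the arm. The 15 highest-scoring peaks lay in 12 different stretches of 1 Mb and scored from 250.24 to 489.6, where the arm's median was 30.4. The strongest was a peak of 1256 bp at 14490093 to 14491348 with a score of 489.6, ranked 3 in the whole list. Next came a peak of 950 bp at 5236955 to 5237904, which scored 444.1 and ranked 8 in the list. These were solitary sites. The first had no other peak for 79380 bp on its distal side and 97557 bp on its proximal side, and the second had none for 90627 and 55148 bp.

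The sites ranked 3 to 5 on the arm had different surroundings. The peak at 3580579 to 3581225 scored 371.96 over only 647 bp, with 3 other peaks within 50 kb. The peak at 2752550 to 2755942 scored 368.65, and with 3393 bp it was also the fourth widest of the arm. It stood 894 bp from the weakest peak of 2L, a peak of 241 bp at 2751415 to 2751655 with a score of 7.59. The peak at 22018602 to 22019548, close to the centromeric heterochromatin, scored 355.74 and had a neighbour of 951 bp with a score of 89.35 at a gap of 4345 bp.

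The other 10 of the 15 scored between 250.24 and 321.5. Scores above 300 belonged to peaks at 14409409 to 14410018 (321.5), 13512549 to 13514410 (320.04) and 12545322 to 12546845 (305.51). After these came peaks at 21899172 to 21899739 (score 284.82), 221617 to 222780 (277.42), 11806406 to 11809390 (275.7), 12460976 to 12461672 (275.0) and 16532751 to 16533574 (270.82). Last were a peak of 1075 bp at 9175971 to 9177045 (251.6) and 1 of 642 bp at 13060017 to 13060658 (250.24). Of all 15, 9 had another peak within 10 kb and 6 did not, and 3 had none within 50 kb of their centre, measured centre to centre. Over all members, 318 of 532, or 59.8%, had another peak within 10 kb, so the 15 did not stand out in this. The share of all members with none within 50 kb is not given here. Strong sites were seen both alone and within groups.

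**Figure D1:**
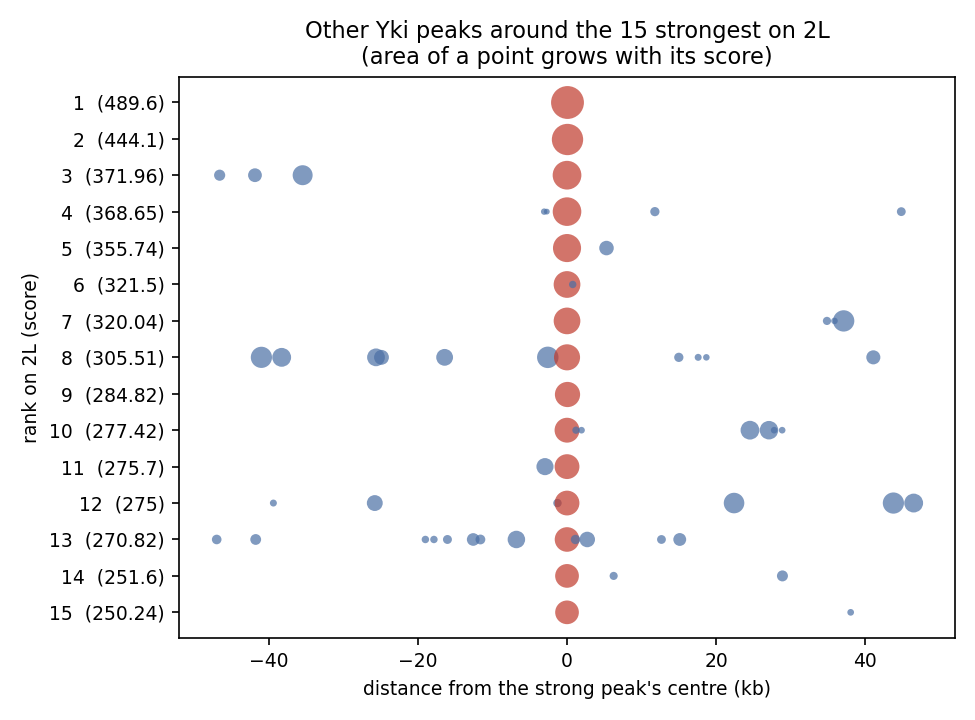
Yki peaks within 50 kb of each of the 15 strongest peaks of 2L, by distance from the strong peak's centre in kb. Rows run by rank, with the score in brackets, and the area of a point grows with the score of its peak. The peaks ranked 1, 2 and 9 have no other peak in view, and that ranked 13 has 12.

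The lowest scores on 2L lay in different parts of the arm. After the peak of 7.59 beside the fourth strongest site, they were 8.15 at 10230895 to 10231145, 8.47 at 17148976 to 17149194, 8.51 at 20276182 to 20276382 and 8.6 at 14988894 to 14989236. These 5 peaks were 201 to 343 bp wide. The peaks at 10230895 and 20276182 were solitary, with their nearest neighbours 29911 and 73583 bp away. The other 3 had a neighbour within 1490 bp.

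Most Yki peaks of 2L were narrow. The median width was 449 bp (interval 416 to 482), with quartiles of 300 and 679 bp and a range of 201 to 4837 bp, and the 532 peaks together covered 313880 bp, or 1.37% of the arm's length without the array. Width went up with score class. The 64 members in the upper 10% of the whole list had a median width of 904 bp, the 136 members between the upper 25% and 50% had 486 bp, and the 128 members in the lowest 25% had 277 bp. Across members, Spearman's correlation of score and width was 0.73 and Pearson's 0.45. Both measures come from the same peak calls, so this relation is a description of the calls. On X, 2R, 3L and 3R, Spearman's values ran from 0.7 to 0.75.

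A small set of very wide peaks did not follow that relation. Of the 5 widest members, 4 had scores near or below the list's median of 30.1. The widest was 4837 bp at 6992184 to 6997020 with a score of 20.88, and the next was 4039 bp at 12559057 to 12563095 with 31.57. A peak of 3403 bp at 9975304 to 9978706 scored 26.07, and the first peak of the arm, 3210 bp at 133 to 3342, scored 26.68. The exception was the peak of 3393 bp at 2752550 described above, with 368.65. In all, 12 members were 2 kb or wider, or 2.26%, and they held 11.1% of the covered bases. Of these 12, 8 scored in the upper 50% of the list and 4 in the lower 50%. On the other large arms 30 of 2548 peaks, or 1.18%, reached 2 kb, and 7 of those 30 were in the lower 50%. These shares were not tested against each other.

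**Figure D2:**
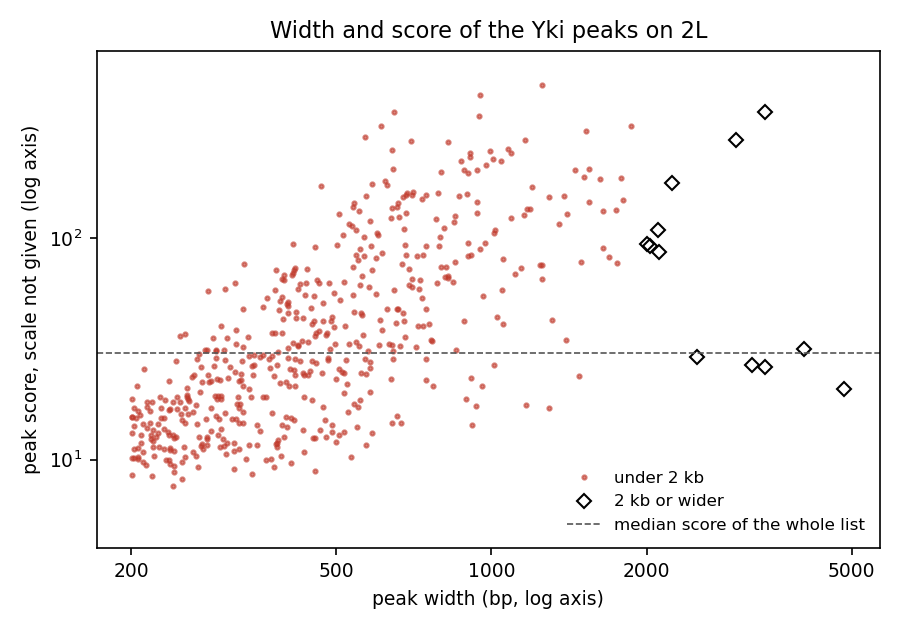
Score against width in bp, both on log axes, for the 532 Yki peaks of 2L, with the 12 peaks of 2 kb or wider as diamonds. Scores climb with width for most peaks, and 5 of the wide peaks lie near or below the dashed line at the list's median, at scores from 20.88 to 31.57.

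Yki peaks on 2L formed many small groups separated by long empty stretches. Of the 532 peaks, 318, or 59.8% (interval 55.5 to 64.0), had another member within 10 kb. Joined at gaps of at most 10 kb, they made 119 runs of 2 or more peaks and 214 solitary peaks. Of the runs, 73 were pairs, 28 had 3 peaks and 18 had 4 or more, and the median span of a run was 5.0 kb. Gaps between adjacent members had a median of 20980 bp, with quartiles of 3838 and 55087 bp. A gap under 1 kb separated 75 of the 531 adjacent pairs, and 65 gaps were longer than 100 kb, including the one that spans the left-out array.

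The share of peaks with a neighbour on 2L lay beside 68.5% on X, 60.8% on 2R, 62.9% on 3L and 61.9% on 3R. The median gap of 20980 bp on 2L compared with 14264 bp on X, 17184 bp on 2R, 15934 bp on 3L and 16630 bp on 3R. Gaps under 1 kb made up 14.1% of gaps on 2L and 20.7% on X, and between 14.5 and 15.2% on 2R, 3L and 3R. These values were not tested against each other.

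**Figure D3:**
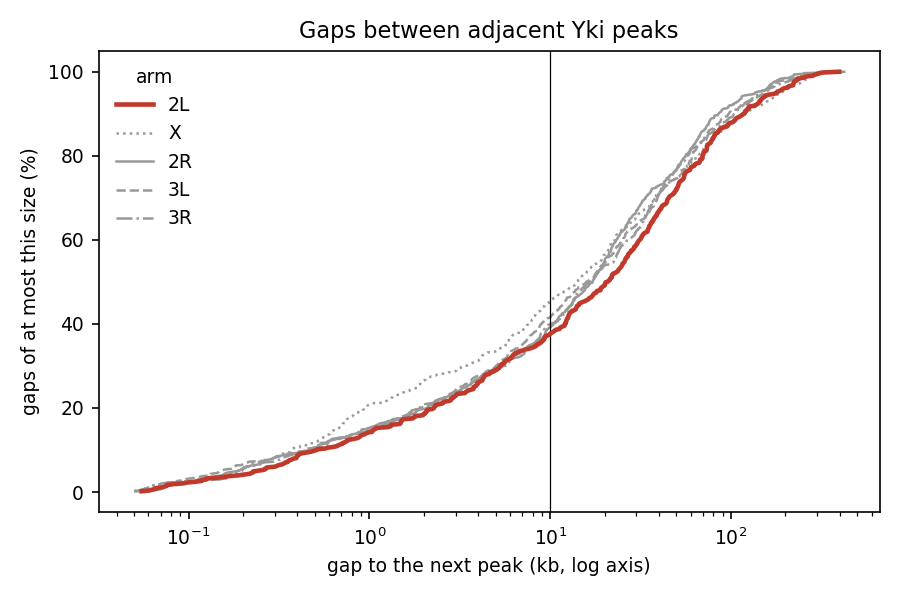
Share of gaps between adjacent Yki peaks that are at most a given size, in kb on a log axis, with 1 line per arm and the histone array left out of 2L. The line of 2L (red) has its median at 20980 bp, the largest of the 5 arms, where X has the smallest, 14264 bp. The vertical line marks 10 kb.

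The largest run held 11 peaks over 34.9 kb at 16513585 to 16548478. It opened with 3 peaks that were nearly joined, with gaps of 98 and 94 bp, widths of 1165, 933 and 2502 bp, and low scores of 17.73, 17.5 and 28.93. Further along came narrower and stronger peaks, with 132.96 at 16526096 to 16526648, 270.82 at 16532751 to 16533574 and 103.08 at 16535575 to 16536176.

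The second run held 7 peaks over 19.9 kb at 16267962 to 16287886, nearer the tip, and had its strong peaks at both ends. Its outer pairs scored 123.01 and 156.91 on the distal side and 160.06 and 94.11 on the proximal side. The 3 peaks between them scored 15.17 to 16.72 and were 237 to 475 bp wide. The stretch from 16 to 17 Mb, which holds both runs, was the second densest of the arm, with 37 peaks.

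Next in size were 2 runs of 6 peaks and 2 runs of 5. The run at 4997262 to 5011449 spanned 14.2 kb and had its highest score, 169.08, in its first peak. The run at 7976835 to 7998954 spanned 22.1 kb, with a highest score of 155.83 and a median of 22.5. The run at 472089 to 491056 ended in its strongest peak, with 231.63, and that at 11987932 to 12011414 reached only 83.7.

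Solitary peaks and grouped peaks had medians whose intervals overlapped. The median was 28.7 (interval 24.6 to 35.9) over the 214 solitary peaks and 31.0 (27.2 to 34.8) over the 318 peaks in runs. In the runs of 4 or more it was 33.5 (26.7 to 58.3) over 88 peaks. Of the 119 runs, 28 held only peaks from the upper 50% of the list, 30 only peaks from the lower 50%, and 61 held both. Scores of adjacent members within 10 kb were weakly related, with a Spearman correlation of 0.17 and a Pearson correlation of 0.09 over 199 pairs, against 0.13 and 0.13 over the 332 pairs further apart. These are descriptions across peaks that share their libraries.

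Adjacent peaks with a gap under 500 bp, of which there were 52 pairs, differed in score by a median of 17.0. The median difference was 28.5 over all 199 pairs within 10 kb and 27.0 over the 332 pairs further apart. At least 1 peak was in the lower 50% of the list in 42 of the 52 close pairs. That held for 139 of the 199 and for 243 of the 332 pairs. Scores within the close pairs were no more closely related, with a Spearman correlation of 0.11 and a Pearson correlation of -0.05. Single close pairs could differ widely. The widest contrast was between the peak of 321.5 at 14409409 and a peak of 17.35 that began 223 bp beyond its end, at 14410242 to 14410712. Next was the peak of 277.42 at 221617, with a peak of 16.34 after a gap of 451 bp, at 223232 to 223561. Of the 64 members in the upper 10% of the list, 18 had a neighbour within 1 kb. The nearest neighbour was in the lower 50% of the list for 10 of these 18. It was so for 6 of the 17 such members between the upper 10% and 25%, and for 15 of 32 between the upper 25% and 50%. Of those between 50% and 75%, it was so for 19 of 34, and in the lowest 25% for 22 of 35. Over all members, 50.0% were in the upper 50% of the list, and the shares of the classes were not tested against each other.

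Yki peaks were densest in the part of the arm next to the telomere. There were 26.9 peaks per Mb between the tip and 7.67 Mb, 22.04 per Mb from 7.67 to 15.34 Mb and 20.8 per Mb from 15.34 Mb to the last peak, with the array's length taken off. The share of peaks in the upper 50% of the list was 50.0%, 55.0% and 44.6% in these stretches, and their median scores were 30.2, 34.8 and 26.7, with overlapping intervals (26.4 to 34.2, 27.9 to 45.1 and 22.9 to 33.9). The densities of the stretches were not tested against each other, and differences in mappability between the stretches were not corrected for.

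The densest stretch of 1 Mb was the first, with 40 peaks. After the second, from 16 to 17 Mb, came 2 to 3 Mb and 8 to 9 Mb with 33 peaks each. Across the 23 whole stretches, the number was 23.1 ± 8.2 (SD over stretches), and the fewest were the 11 peaks from 17 to 18 Mb, which also had the lowest median score, 12.7. Of all 532 members, 64, or 12.0%, were in the upper 10% of the list, against 11.0% on the other large arms. Strong peaks gathered most from 12 to 13 Mb. There, 10 of 31 peaks were in the upper 10% of the list and the median score was 93.7, the highest of the 23 stretches. Within it, 9 neighbouring peaks over 85.9 kb, at 12460976 to 12546845, all scored between 93.69 and 305.51, and 7 of them were in the upper 10% of the list. No other 100 kb of the arm that did not overlap this stretch held more than 3 such peaks. The same group is followed after 12211 bp by the wide peak of 31.57 described above.

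The tip of 2L began with a tight group of 4 peaks of low score. They were 3210, 1295, 441 and 555 bp wide and scored from 17.12 to 26.68. The first opened at base 133, and the group ended at 5948 after covering 5501 bp. The next member lay 60736 bp further on. In the first 10 kb of the other arms' sequences, 3L, which also starts at its telomere, had 9 peaks with scores from 13.13 to 23.12, and X, which does too, had none. Arms 2R and 3R, which start at the centromere, had 1 and 2 peaks there.

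At the centromere end, peaks were few and mostly weak, with a single strong site. From 22 Mb to the last peak at 23006062 to 23006275 there were 17 peaks with a median score of 13.5. The first of them, at 22018602, scored 355.74, its neighbour 89.35, and the other 15 scored between 9.41 and 26.68. The ninth strongest peak of the arm, at 21899172 to 21899739, scored 284.82 and lay 118862 bp on the distal side of that site, with no peak between. Few and mostly weak peaks were not particular to this end of the arm. From 10 to 11 Mb there were 15 peaks with a median score of 14.4, and from 17 to 18 Mb 11 with 12.7. Beside the histone array, the last member before it was at 21404797 to 21405253 with a score of 27.17, and the first after it at 21557857 to 21558125 with 9.24. The outermost peaks left out were at 21417341 with 16.8 and at 21540966 with 12.11.

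Long stretches of 2L held no Yki peak. The longest was 398.0 kb, from 14589210 to 14987161. The others among the 5 longest measured 319.1 kb (15912192 to 16231298), 305.7 kb (1186273 to 1491926), 299.7 kb (2451352 to 2751021) and 288.0 kb (16858286 to 17146312). The strongest peak of the arm lay in an island of 6 peaks, 14355107 to 14589209, bounded by the longest of these gaps and by another of 260.2 kb. The island held scores of 489.6 and 321.5, and its other 4 peaks scored from 13.51 to 59.15. The fourth strongest peak belonged to the run that follows another of the 5 longest gaps, that of 299.7 kb. In windows of 100 kb, 50 of 231, or 21.6%, had no peak, and the fullest, from 16.5 to 16.6 Mb, had 12.

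No difference in score between 2L and the other large arms was detected. The median was 30.4 (27.7 to 33.3) on 2L, beside 30.4 on X, 32.3 on 2R, 27.5 on 3L and 33.4 on 3R. Of the members, 266 of 532, or 50.0%, were in the upper 50% of the list, against 1305 of 2548, or 51.2%, on X, 2R, 3L and 3R together. The difference of -1.2 percentage points (interval -5.9 to 3.4) did not pass Fisher's exact test (two-sided, p = 0.634, adjusted over 2 tests 0.634). In the upper 25% and 10% of the list the sign turned, with differences of 0.18 and 1.04 points, and neither passed (Fisher's exact test, p = 0.956 and 0.496).

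**Figure D4:**
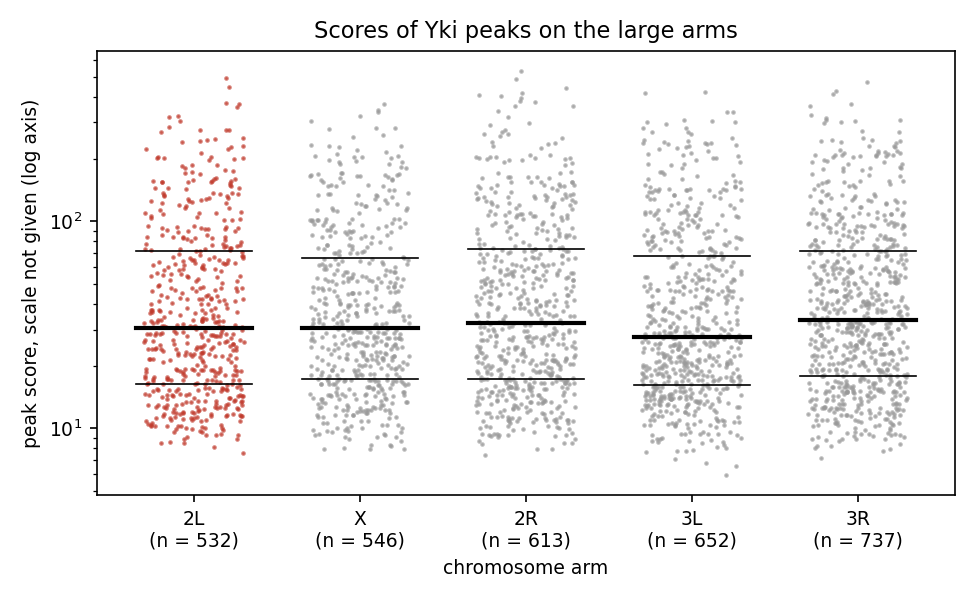
Scores on a log axis of the Yki peaks on 2L and on X, 2R, 3L and 3R, with 1 point per peak, a thick line at the median and thin lines at the quartiles. The median is 30.4 on 2L and between 27.5 and 33.4 on the other arms.

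Peaks were sparser on 2L than on the other large arms once the histone array was left out, but this depended on how peaks were counted. There were 532 peaks over 22.9 Mb, or 23.3 per Mb, against 2548 over 95.9 Mb, or 26.6 per Mb, on X, 2R, 3L and 3R together. The ratio of 0.876 (interval 0.796 to 0.962) passed the two-sided exact conditional test (p = 0.00494, adjusted over 2 tests 0.00988). That test takes peaks as independent, and clustered peaks make its p-value too small and its interval too narrow. In windows of 100 kb on 2L, the variance of the number of peaks was 1.96 times its mean. Singly, the other arms had 24.4 peaks per Mb on X, 29.0 on 2R, 26.6 on 3L and 26.5 on 3R. X was thus close to 2L, and 2L was not tested against X alone. Over 22.4 Mb, X had 127 peaks in the upper 25% of the list, beside 130 on 2L. It had 172 solitary peaks and 126 runs, beside 214 and 119 on 2L. The array held 51 peaks within 129 kb, and leaving it out was bound to lower 2L. With it kept, the ratio was 0.954 and did not pass (exact test, unadjusted p = 0.319). Nor did it pass with each run counted once (0.932, exact test, unadjusted p = 0.26) or in the upper 25% of the list (0.882, exact test, unadjusted p = 0.21).

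**Figure D5:**
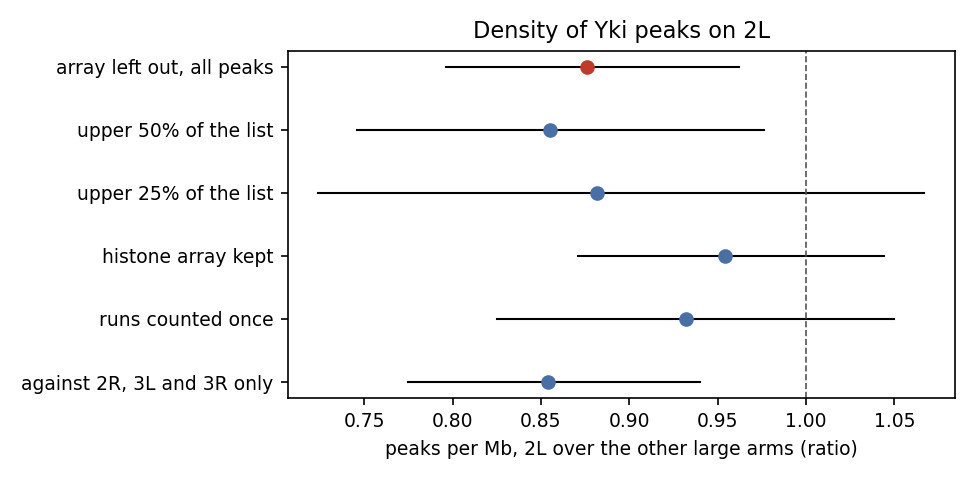
Peaks per Mb on 2L divided by peaks per Mb on the other large arms, with 95% intervals, for all members (red) and for 5 other ways of counting. The ratio runs from 0.854 to 0.954, and the interval includes 1 (dashed line) in 3 of the 6.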

How the data were processed

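Yki ChIP-seq compared 3 ChIP with 3 input libraries. Per the file headers the peaks are MACS binding sites on FlyBase release 5. The build BDGP5 and the tools MACS2, BWA and CASAVA (versions 1.7.0.2 and 1.7.0.3) are listed without parameters, per the submitters' processing notes. The sources used here do not state whether libraries were pooled for peak calling. The authors deposited 1 peak score per peak, on an unstated scale. Depth per library is therefore unknown.

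Starts, ends and scores were read from the list. An arm's length was its furthest peak end, and that of 2L was shortened by the array. The upper 50%, 25% and 10% refer to all 5136 peaks. Densities were compared with an exact conditional (binomial) test and shares with Fisher's exact test, both two-sided, at 0.05 with Benjamini-Hochberg adjustment over 2 tests. Single shares have exact Clopper-Pearson intervals, differences Newcombe's, and medians order-statistic intervals. Clustered peaks make these p-values too small. The functions were tested on simulated data. The tools were scipy 1.17.1, pandas 2.3.3 and numpy 2.4.6 under Python 3.11.15, with matplotlib 3.10.9 for plots.

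Named by rule were the 15 strongest, 5 widest and 5 weakest peaks, the 5 largest runs (6 with ties), the 5 longest gaps, the 3 densest stretches of 1 Mb (4 with ties) and the emptiest. Other named sites were chosen after their values were seen. Members, lists and tests were chosen with earlier results of these data known. The gene table at hand follows release 6, so genes, features, motifs and sequences were not analysed here.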

Additional observations from a re-analysis of the deposited data

How the results depend on the processing

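The lower density on 2L kept its direction in all 5 alternatives. It no longer passed the exact test in the upper 25% of the list (ratio 0.882, p = 0.21), with the histone array kept (0.954) or with runs counted once (0.932), and passed in the upper 50% (0.855) and against 2R, 3L and 3R only (0.854). The upper 25% holds fewer peaks, and the array is a dense stretch by itself. Why the ratio did not pass in these alternatives or with runs counted once was not tested. The score difference passed in none, and changed sign to 0.18 and 1.04 percentage points with the upper 25% and 10% as the strong class. By construction, the share of peaks with a neighbour was 48.5% at 5 kb, 72.7% at 20 kb and 46.6% in the upper 50%, whose median width was 643.5 bp. With the array kept, the share was 63.3% and the median width 457 bp. No paired analysis was possible because scores are deposited for the series as a whole, not by replicate, and no replicate could be left out for the same reason. Alternatives on genes and motifs were not run. Whether the depth hid weak sites is not known.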
